A study of Homo sapiens with 12 samples.

Results

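The 8 genes described here encode inhibitors of growth signalling and regulators of fuel use: the sestrins SESN1, SESN2 and SESN3, the stress gene DDIT4, the arrestin-domain gene TXNIP, the pyruvate dehydrogenase kinase gene PDK4, and the FOXO transcription factors FOXO1 and FOXO3. They were taken by name, with earlier results of these data known, out of 19974 protein-coding genes, of which 17155 could be tested. What was measured is H3K27ac, an acetyl mark on histone H3 found at promoters and enhancers in use, in the multiple myeloma line RPMI 8226, an established cell line. For each gene, every deposited peak within 25 kb of its RefSeq span on hg38 was taken. These windows held 528 of the 573987 peaks of all libraries, 40 to 49 in each. CUT&RUN, in which a nuclease tethered to the antibody cuts out the marked chromatin, was run on 4 groups of 3 libraries: scramble control cells with DMSO, scramble control cells with 10 µM dexamethasone for 2 h, CEBPB knockout cells with DMSO, and CEBPB knockout cells with 10 µM dexamethasone for 2 h. All groups came from the same line. Whether the knockout is a single clone and whether replicate libraries stem from cultures grown apart is not given in the labels, so p-values measure only the spread between these libraries. The loss of CEBPB cannot be checked in peak lists.

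Sestrins and the DDIT4 protein restrain mTORC1, the kinase complex that drives protein synthesis and growth when nutrients are plentiful. SESN1 and SESN2 do so by binding GATOR2, an activator of the amino acid branch of the pathway, and DDIT4 acts through the TSC complex. FOXO factors enter the nucleus when insulin and AKT signalling are low and switch on catabolic genes. TXNIP limits glucose uptake and binds thioredoxin, and PDK4 blocks the entry of pyruvate into the citric acid cycle. Dexamethasone is a synthetic glucocorticoid used against myeloma, it acts through the glucocorticoid receptor, and several of these genes are known as glucocorticoid or FOXO targets in other tissues. C/EBPβ, the product of CEBPB, is a leucine zipper transcription factor.

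Promoters are shown for the 5 genes at which the reference sequence and the peaks at the start can best be set side by side: the 3 with a motif match before the start, and SESN3 and DDIT4, one without and one with a peak over its start. Each run is the 250 bases before the gene's first start, 5′ to 3′ on the gene's strand, from RefSeq GRCh38.p14. The capitals mark a motif match.
PDK4: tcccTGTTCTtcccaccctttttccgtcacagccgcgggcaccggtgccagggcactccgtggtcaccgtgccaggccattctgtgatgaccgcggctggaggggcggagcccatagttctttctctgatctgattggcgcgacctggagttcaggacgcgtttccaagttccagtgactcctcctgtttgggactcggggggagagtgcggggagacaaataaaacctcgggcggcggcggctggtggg
SESN2: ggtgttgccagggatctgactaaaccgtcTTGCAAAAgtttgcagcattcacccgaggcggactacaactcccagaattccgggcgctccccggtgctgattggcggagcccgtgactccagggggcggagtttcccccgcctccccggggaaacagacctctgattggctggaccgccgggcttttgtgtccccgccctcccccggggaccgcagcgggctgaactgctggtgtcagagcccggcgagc
TXNIP: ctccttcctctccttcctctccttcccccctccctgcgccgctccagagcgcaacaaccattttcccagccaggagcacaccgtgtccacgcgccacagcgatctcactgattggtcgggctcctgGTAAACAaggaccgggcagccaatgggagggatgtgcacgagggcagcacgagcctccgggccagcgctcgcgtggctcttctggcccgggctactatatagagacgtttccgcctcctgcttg
SESN3: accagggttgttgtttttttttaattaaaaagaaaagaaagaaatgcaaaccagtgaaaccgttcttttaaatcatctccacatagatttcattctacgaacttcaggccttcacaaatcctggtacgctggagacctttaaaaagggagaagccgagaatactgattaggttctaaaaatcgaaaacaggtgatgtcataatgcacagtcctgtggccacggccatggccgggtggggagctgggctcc
DDIT4: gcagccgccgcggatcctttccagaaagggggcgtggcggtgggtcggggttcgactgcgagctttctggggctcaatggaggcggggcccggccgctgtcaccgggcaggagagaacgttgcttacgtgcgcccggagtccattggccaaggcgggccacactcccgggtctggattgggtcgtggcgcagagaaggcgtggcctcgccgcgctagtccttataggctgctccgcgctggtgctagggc
The windows lie at chr7:95596517-95596766 (minus strand), chr1:28259268-28259517 (plus), chr1:145996580-145996829 (minus), chr11:95232476-95232725 (minus) and chr10:72273674-72273923 (plus), in the order shown. All 8 genes matched the promoter table, with 14 starts.

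Motifs were searched on both strands, from 250 bases before to 50 after each of the 14 starts. The PDK4 promoter holds the glucocorticoid receptor half-site AGAACA on its opposite strand, 246 bases before the start, and 14.8% of all 35116 promoters hold it. The SESN2 promoter has the C/EBP pattern TTGCNNAA 221 bases before its start (10.5% of all promoters), and the TXNIP promoter has the FOXO site GTAAACA 124 bases before its start (3.42%). No other match was found among the starts of the 8 genes for these 3 motifs, for the full receptor palindrome (AGAACA, any 3 bases, TGTTCT; 0.0028% of promoters), for TTGCGCAA (0.151%; a special case of TTGCNNAA), for the E-box CACGTG (7.26%), for the C/EBP-ATF site TGATGCAA (0.866%) or for the CRE TGACGTCA (1.85%). A match is a run of letters and not a shown binding site. The GC content of the 300 bases was 60.7% at PDK4, 67.0% at SESN2, 69.7% at DDIT4 and 45.0% at SESN3, beside a median of 58.7% over all promoters.

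A peak lay over the start in all 12 libraries at DDIT4, at SESN2, at the 3 starts of SESN1 and at the 4 starts of FOXO3, and in 11 of 12 at FOXO1. At PDK4 the start was under no peak in any library, and the nearest region of peaks was 11.8 kb upstream of it. SESN3 likewise had no peak over its start, with the nearest region 0.894 kb away, inside the gene. The first TXNIP start was under a peak in 3 libraries, all of knockout cells, and a peak began just upstream of it in the others. The peaks at 3 of these starts are shared with another gene: CEP57L1 at SESN1, the antisense gene DDIT4-AS1 at DDIT4 and LOC124901372 at FOXO3. H3K27ac carries no strand, so these starts cannot be told apart.

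The libraries held 41164 to 56421 peaks covering 48.0 to 66.4 Mb. Reads per peak are not listed, and the depth behind each value is unknown. Covered length was 58.9 ± 6.8 Mb (SD, n = 3) in scramble DMSO, 52.7 ± 6.2 in scramble dexamethasone, 58.2 ± 5.5 in knockout DMSO and 54.4 ± 4.0 in knockout dexamethasone libraries. Of 9 plasma cell markers, 6 had a peak over their start in all 12 libraries (SDC1, IRF4, PRDM1, XBP1, CD38 and MZB1) and 3 in none. The same count was 2 of 5 for mature B cells (CR2 and FCER2), 1 of 6 for T cells (CD8A), 0 of 6 for myeloid cells and 1 of 6 for stromal or epithelial cells (KRT8). No library had a peak over the start of 3 of the 5 mature B cell, 5 of the 6 T cell, 2 of the 6 myeloid and 5 of the 6 stromal or epithelial markers. The myeloid genes CD14, ITGAM, S100A9 and S100A8 had one in some libraries. The summed coverage of the plasma cell list was 62.9 to 78.3 kb in scramble and 77.5 to 84.7 kb in knockout libraries, and that of the T cell list 4.64 to 10.4 kb and 8.20 to 14.0 kb. The part of these differences in the knockout results below was not tested. The CEBPB window held 5.61 ± 0.50 kb of peaks in scramble DMSO, 4.45 ± 0.31 in scramble dexamethasone, 4.77 ± 0.47 in knockout DMSO and 4.43 ± 0.41 in knockout dexamethasone libraries. The window of NR3C1, the glucocorticoid receptor gene, held 8.56 ± 2.8, 7.23 ± 1.1, 6.35 ± 0.47 and 6.80 ± 0.79 kb in the same order.

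Covered length in the gene windows spanned a wide range. FOXO3 was the most widely covered, with a mean of 19.6% of its 174.950 kb window under peaks and 16 to 20 peaks per library. DDIT4 (18.8%), TXNIP (16.4%) and SESN2 (11.7%) followed, and SESN1 (3.71%), FOXO1 (2.93%), PDK4 (2.06%) and SESN3 (1.82%) were sparsely covered. PDK4 had 1 peak, or 2 in 1 library, and FOXO1 had 3 in every library. Because a broad peak counts by its length, a value also moves when the peak caller joins neighbouring peaks or splits them.

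The sestrins come first. SESN1 (chr6:108984309-109094846, minus strand) was covered over 3.84, 3.95 and 4.70 kb in the scramble DMSO libraries and over 6.86, 4.73 and 6.95 kb in the scramble dexamethasone libraries. Knockout cells gave 4.78, 2.84 and 8.96 kb with DMSO and 7.29, 9.52 and 7.02 kb with dexamethasone. All 3 treated scramble libraries lay above the 3 untreated ones, while in knockout cells the untreated library with 8.96 kb overlapped the treated group.

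SESN2 (chr1:28259518-28282491, plus strand) encodes a protein that responds to leucine. The gene was covered over 6.76, 7.19 and 7.58 kb in scramble DMSO libraries and 9.78, 9.55 and 7.83 kb with dexamethasone. In knockout cells the values were 8.57, 6.60 and 10.6 kb with DMSO and 11.6, 8.30 and 8.52 kb with the drug. The scramble groups did not overlap and the knockout groups did.

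SESN3 (chr11:95165513-95232475, minus strand), a FOXO target in other cells, had little coverage. It was covered over 3.46, 2.10 and 2.38 kb in scramble DMSO libraries, 1.95, 2.41 and 2.27 kb in scramble dexamethasone libraries, 1.47, 1.30 and 1.90 kb in knockout DMSO libraries and 2.22, 1.71 and 2.42 kb in knockout dexamethasone libraries. The 3 knockout DMSO libraries lay below the 3 scramble DMSO and the 3 scramble dexamethasone libraries, and the other pairs of groups overlapped.

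DDIT4, also named REDD1 (chr10:72273924-72276036, plus strand), was covered over 12.0, 9.08 and 8.53 kb in scramble DMSO libraries and 11.9, 12.0 and 9.65 kb with dexamethasone. Knockout libraries held 7.11, 7.11 and 7.84 kb with DMSO and 9.70, 12.3 and 10.1 kb with the drug. The knockout DMSO libraries were the 3 lowest of the 12, with no overlap with either scramble DMSO or knockout dexamethasone libraries.

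TXNIP (chr1:145992435-145996579, minus strand) was covered over 9.78, 7.16 and 6.70 kb in scramble DMSO, 8.89, 9.31 and 9.68 kb in scramble dexamethasone, 7.42, 8.99 and 9.58 kb in knockout DMSO and 10.4, 9.24 and 9.49 kb in knockout dexamethasone libraries. Treated and untreated libraries overlapped in both genotypes. PDK4 (chr7:95583499-95596516, minus strand) was covered over 0.990, 0.923 and 0.930 kb in scramble DMSO libraries and 1.80, 1.62 and 1.69 kb with dexamethasone. In knockout cells it was 1.07, 0.707 and 1.60 kb with DMSO and 0.830, 1.69 and 1.72 kb with the drug. The scramble groups were apart from each other, and in knockout cells the groups overlapped.

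FOXO1 (chr13:40555667-40666641, minus strand) was covered over 4.94, 3.81 and 4.38 kb in scramble DMSO, 5.06, 4.60 and 4.77 kb in scramble dexamethasone, 4.74, 4.41 and 4.43 kb in knockout DMSO and 5.39, 5.33 and 4.79 kb in knockout dexamethasone libraries. In knockout cells the treated libraries were all above the untreated ones, and in scramble cells the groups overlapped; the difference between the responses was tested as given further on. FOXO3 (chr6:108559825-108684774, plus strand) was covered over 38.8, 35.5 and 33.7 kb, then 31.9, 31.1 and 37.8 kb, then 36.0, 31.8 and 37.7 kb, and last 34.5, 33.3 and 30.2 kb in the same order of groups. Its groups overlapped in every comparison.

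**Figure D1:**
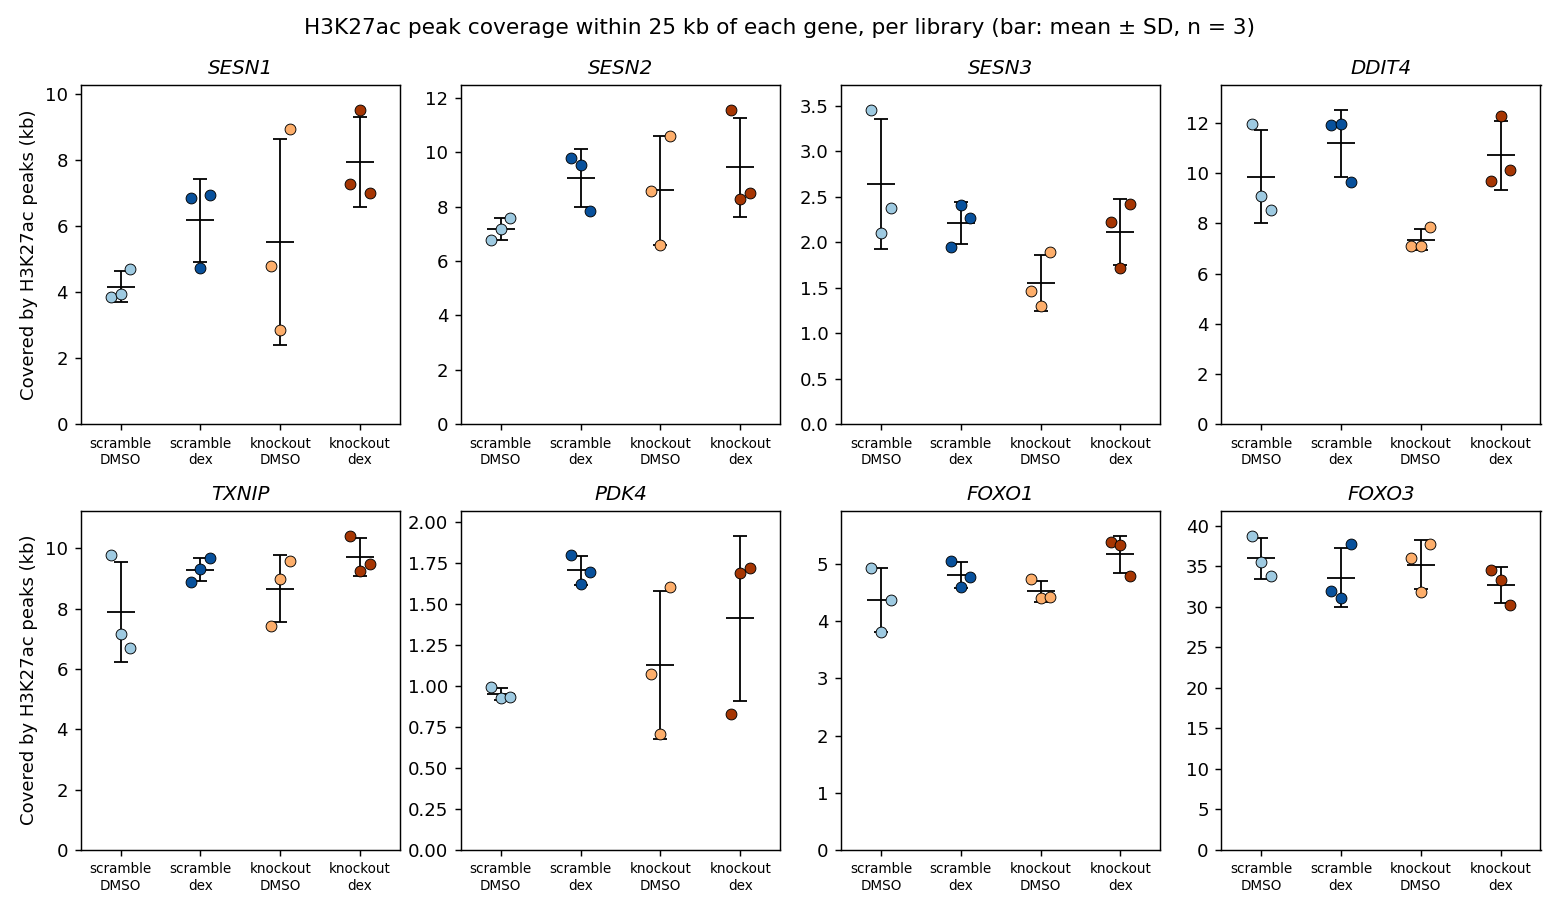
Base pairs covered by H3K27ac peaks from 25 kb before to 25 kb after each gene (kb, linear axis from 0), with 1 point per library, 3 libraries per group, and bars for the mean ± SD. The 3 scramble dexamethasone libraries lie above the 3 scramble DMSO libraries at SESN1, SESN2 and PDK4, and the 3 knockout DMSO libraries are the lowest at DDIT4.

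The first question was what dexamethasone did to these windows. Coverage was fitted with limma as log2(base pairs + 500) after quantile normalisation, on all 17155 genes, and called at a Benjamini-Hochberg adjusted p under 0.05 over all of them. None of the 8 genes was called for the drug in scramble cells (0.0233% of all genes were called), in knockout cells (0.0175%) or averaged over the genotypes (0.0408%, 7 genes). All log2 differences of genes are on the log2(value + 500 bp) scale, which understates changes of sparsely covered genes such as PDK4.

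Averaged over the genotypes, all 8 fitted differences were above 0, although that of FOXO3 (0.015) turned below 0 in 5 of 23 alternative settings and the other 7 kept their sign in all of theirs. The median was 0.32 for the 8 genes and 0.024 for all genes tested. At an unadjusted p under 0.05, 6 of the 8 were higher, beside 4.56% of all genes. Because the 8 genes were chosen with earlier results of these data known, this share and those below are descriptions. They are no test of the set. DDIT4 had the smallest p, with a log2 difference of 0.45 ± 0.087 SE (adjusted p = 0.13 in limma). SESN1 differed by 0.67 ± 0.19 (adjusted p = 0.32 in limma) and PDK4 by 0.52 ± 0.15 (adjusted p = 0.30). SESN2 differed by 0.33, TXNIP by 0.31 and FOXO1 by 0.26, with adjusted p between 0.36 and 0.46 in limma. SESN3 (0.18) did not reach an unadjusted p of 0.05. When only peaks with a −log10 q of at least 2 were counted, SESN1 passed (log2 0.73, adjusted p = 0.0014 in limma), as it did in scramble cells (0.69, adjusted p = 0.011) and in knockout cells (0.77, adjusted p = 0.013).

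In scramble cells PDK4 had the largest difference of the 8, with 0.948 ± 0.037 kb under DMSO and 1.70 ± 0.091 kb under dexamethasone (SD, n = 3; log2 0.76 ± 0.21 SE, adjusted p = 0.33 in limma). SESN1 (0.63), SESN2 (0.41), TXNIP (0.33), DDIT4 (0.27) and FOXO1 (0.26) were also above 0, and SESN3 (−0.054) and FOXO3 (0.045) were near 0, with signs that turned in 5 of 24 settings each. Treated and untreated scramble libraries did not overlap at PDK4, SESN1 and SESN2, all higher, 3 of 8 genes beside 2.07% of all genes.

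In knockout cells DDIT4 had the smallest p, with 7.36 ± 0.42 kb under DMSO and 10.7 ± 1.4 kb under dexamethasone (log2 0.62 ± 0.12 SE, adjusted p = 0.23 in limma). Within 5 kb of the gene alone the DDIT4 difference was −0.048. SESN1 differed by 0.70 and SESN3 by 0.40, both with overlapping groups. Treated libraries lay above untreated ones without overlap at DDIT4 and FOXO1, 2 of 8 beside 3.76% of all genes. The difference between the drug responses of the genotypes was called at 0 of 8 genes (0.0117% of all genes). It was 0.35 at DDIT4 (95% interval −0.031 to 0.73), 0.46 at SESN3 (−0.12 to 1.04) and −0.47 at PDK4 (−1.11 to 0.16). These intervals do not exclude a sizeable difference between the responses of the genotypes. In a bulk profile, a mark carried by more cells and more of the mark per cell cannot be told apart.

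**Figure D2:**
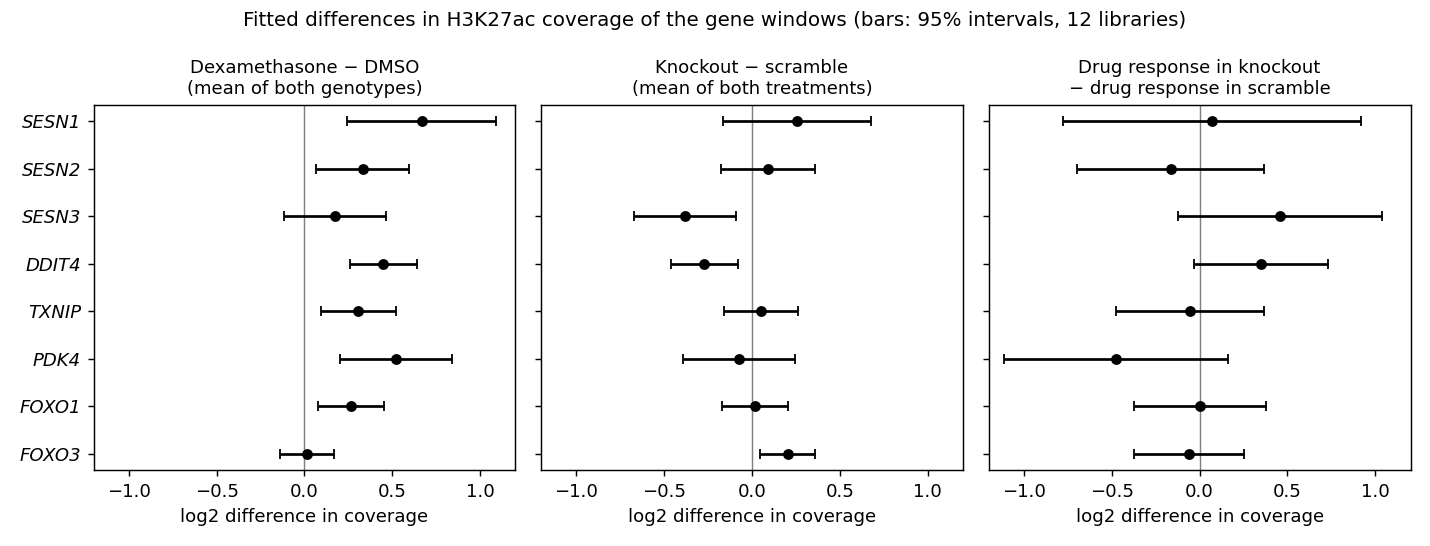
Fitted log2 differences in peak coverage of the 8 gene windows with 95% intervals from limma over 12 libraries, for dexamethasone minus DMSO, knockout minus scramble, and the drug response in knockout minus that in scramble cells. Intervals of 6 genes lie above 0 in the drug panel. In the knockout panel those of DDIT4 and SESN3 lie below 0 and that of FOXO3 lies above 0. Every interval of the last panel holds 0, and no adjusted p is under 0.05.

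The knockout comparison set knockout libraries beside scramble libraries. In it, loss of CEBPB and any other difference between these cells cannot be told apart. The comparison shares its libraries with the drug comparisons, so the 2 sets of values are not independent. Averaged over the treatments, 0 of the 8 genes were called, beside 15.1% of all genes, and 3 of 8 had an unadjusted p under 0.05, beside 27.2%. DDIT4 was lower by log2 −0.27 ± 0.087 SE (adjusted p = 0.057 in limma) and SESN3 by −0.38 ± 0.13 (adjusted p = 0.078). FOXO3 had 0.20 (adjusted p = 0.082), but −0.035 with no normalisation and −0.053 with scaling to total covered length. Of the rest, SESN1 had 0.26, SESN2 0.090, TXNIP 0.049, FOXO1 0.019 and PDK4 −0.076, with adjusted p from 0.45 to 0.93 in limma.

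Under DMSO, DDIT4 was lower in knockout cells by log2 −0.45 ± 0.12 SE (adjusted p = 0.0503 in limma) and SESN3 by −0.61 ± 0.19 (adjusted p = 0.078). Neither passed, and 0 of 8 genes were called where 7.32% of all genes were. Groups did not overlap at these 2 genes, 2 of 8 beside 22.2% of all genes. DDIT4 passed in 5 of 24 alternative settings, among them strong peaks alone (−0.43, adjusted p = 0.014), and was −0.072 with a window of 5 kb and −0.030 with one of 100 kb. Under dexamethasone, 0 of 8 genes were called (7.62% of all genes), with DDIT4 at −0.097 and SESN3 at −0.15. SESN1 alone had groups that did not overlap there, higher in knockout cells (log2 0.29), 1 of 8 beside 26.6% of all genes.

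Single regions gave a finer view. Bases under peaks of at least 3 libraries were joined into 57481 regions, of which 47 lie within 25 kb of the 8 genes: 18 at FOXO3, 8 at SESN1, 6 at DDIT4, 5 at SESN2, 4 at TXNIP, 3 at FOXO1, 2 at SESN3 and 1 at PDK4. They are numbered along each gene from its upstream side. Of the 47, 24 lie within the gene span, 8 over a start, 8 upstream, 6 downstream and 1 at the start of the neighbouring gene ATP5IF1. All 12 libraries held a peak in 34 of them (72.3%, beside 43.0% of all regions), which ranged from 2 of 8 at SESN1 to 3 of 3 at FOXO1. Whether a region is exonic or intronic was not examined.

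Dexamethasone changed 3 of the 47 regions, averaged over the genotypes, beside 1.35% of all regions (777, of which 389 were higher and 388 lower). All 3 were higher, 2 inside SESN1 and 1 upstream of DDIT4. Region values were covered base pairs with an offset of 100 bp and no normalisation. Of the 777 called regions, 84.0% had a group listed at 0 throughout, beside 33.5% of all regions. There the spread within the group is 0, which makes such p-values small.

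SESN1 region 5 (chr6:109022864-109023715, 852 bp wide) lies 71.6 kb into the gene. All 6 DMSO libraries are listed at 0. The scramble dexamethasone libraries were covered over 832, 694 and 838 bp and the knockout dexamethasone libraries over 718, 852 and 852 bp. The peak was thus present in every treated library and in no untreated one, which held for 0.0678% of all regions (39). The log2 difference was 3.16 ± 0.16 SE (adjusted p = 2.7e-05 in limma), and the region passed in 22 of 22 alternative settings. It met the rule of at least 3 libraries through treated libraries alone, and the settings reuse the same lists. The p and the settings are thus no independent support. The peaks of region 5 had a fold enrichment of 4.41 to 5.63 and a −log10 q of 6.58 to 10.4, as the authors' peak caller gave them within each list.

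SESN1 region 4 (chr6:109064235-109065022, 788 bp wide) lies 30.2 kb into the gene. The scramble DMSO libraries are listed at 0, and the scramble dexamethasone libraries held 752, 642 and 788 bp. Knockout DMSO libraries held 259, 0 and 268 bp and knockout dexamethasone libraries 625, 694 and 752 bp. The treated libraries were all above the untreated ones in both genotypes, and knockout cells had a short peak before treatment in 2 of 3 libraries. These 2 short peaks were not weaker: their fold enrichment lay within the range of the 6 treated libraries (3.11 to 4.49). Their −log10 q was 3.52 and 2.56, beside 1.58 to 4.78 in the treated libraries. These 2 libraries thus differed from the treated ones in covered length and not in these values. The log2 difference was 2.39 ± 0.33 SE (adjusted p = 0.0052 in limma). It passed in 21 of 22 settings and was lost with strong peaks alone (1.87, adjusted p = 0.30). Untreated libraries alone could not meet the rule of at least 3 libraries here, and the scramble DMSO group is at 0 throughout. The p and the settings are thus no independent support for region 4 either.

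The other SESN1 regions did not pass. Region 1 over the first start and region 7 over the 2 inner starts, 85.3 kb away, were covered in all 12 libraries. Region 8 (92.3 kb) overlapped between treatments in scramble cells, with 631, 0 and 734 bp with DMSO and 513, 594 and 883 bp with the drug. In knockout libraries it had 0, 0 and 429 bp with DMSO and 855, 532 and 883 bp with the drug, which do not overlap (averaged log2 1.60, adjusted p = 0.54 in limma). Region 3 (11.7 kb), the widest at 1526 bp, had peaks in 4 libraries, all of knockout cells. It held 1507, 0 and 1526 bp with DMSO and 1526, 1328 and 0 bp with dexamethasone there. The averaged knockout log2 difference was 2.65 (adjusted p = 0.076 in limma). This region met the rule of at least 3 libraries through knockout libraries alone, and both scramble groups are at 0. That p is thus no independent support.

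**Figure D3:**
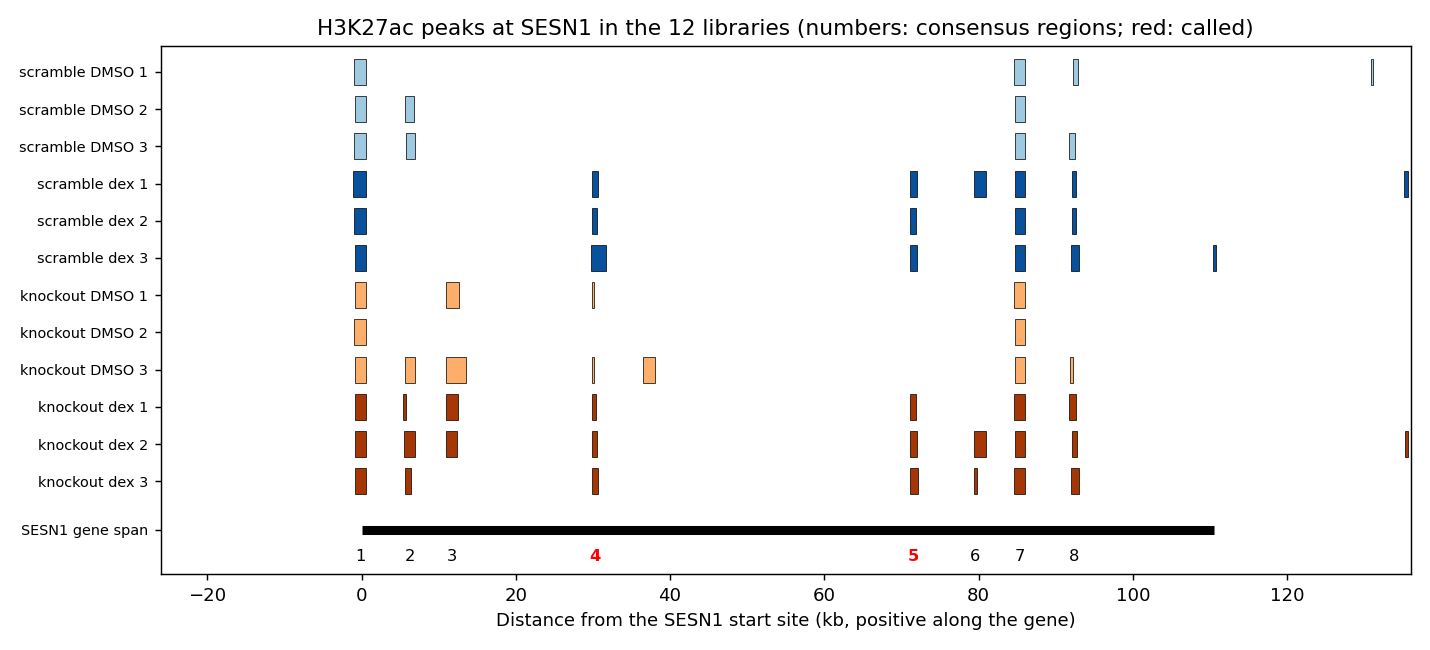
Deposited H3K27ac peaks along SESN1 in each of the 12 libraries, as distance from the first start in kb (positive along the gene), with the gene span as a black bar and the consensus regions numbered. Regions 4 and 5, in red, were called for dexamethasone; region 5 has a peak in 6 of 6 dexamethasone and 0 of 6 DMSO libraries, while regions 1 and 7 over the starts have one in all 12.

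DDIT4 region 2 (chr10:72256322-72256662, 341 bp wide) lies 17.4 kb upstream. All 6 DMSO libraries are listed at 0, the scramble dexamethasone libraries held 341, 327 and 318 bp, and the knockout dexamethasone libraries 0, 325 and 268 bp. A peak was thus present in 5 of 6 treated libraries, and this region too met the rule of at least 3 libraries through treated libraries alone. These 5 peaks were weak, with a fold enrichment of 1.86 to 2.27 and a −log10 q of 2.39 to 6.15. The log2 difference was 1.71 ± 0.34 SE (adjusted p = 0.048 in limma), and it passed in 7 of 21 alternative settings, with adjusted p up to 0.11. DDIT4 region 3 (chr10:72259962-72264171), the widest at this gene, lies 11.9 kb upstream. It held 4148, 2523 and 2307 bp with DMSO and 4008, 3978 and 2579 bp with dexamethasone in scramble libraries. In knockout libraries it held 2408, 2384 and 2421 bp with DMSO and 4005, 4205 and 4076 bp with the drug, with no overlap. The longer values are libraries in which 2 peaks of the others were joined into 1 (averaged log2 0.50, adjusted p = 0.32 in limma). Region 4 over the DDIT4 start held 2119 to 3422 bp in the 12 libraries and did not pass.

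Averaged over the treatments, 2 of the 47 regions were called between knockout and scramble cells, beside 17.1% of all regions. DDIT4 region 1 (chr10:72247690-72250920, 3231 bp wide, centred 24.6 kb upstream and reaching past the window) was covered over less length in knockout cells. Scramble libraries held 3063, 3231 and 3231 bp with DMSO and 3224, 3226 and 3051 bp with dexamethasone. Knockout libraries held 1558, 1398 and 1383 bp with DMSO and 3016, 3059 and 1610 bp with the drug. The 3 knockout DMSO libraries and 1 of the 3 knockout dexamethasone libraries had a peak over only part of the region. The DMSO groups did not overlap, and the dexamethasone groups did. The peaks were not lower in fold enrichment: with DMSO it was 4.04, 4.12 and 4.38 in knockout and 3.91, 3.70 and 3.79 in scramble lists. With dexamethasone it was 3.76 to 3.90 in knockout and 3.63 to 4.01 in scramble lists. The log2 difference was −0.72 ± 0.14 SE (adjusted p = 0.0062 in limma), and the region passed in 22 of 22 settings. Its drug response differed between the genotypes by log2 0.73 (adjusted p = 0.78), which did not pass.

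FOXO3 region 11 (chr6:108618065-108623496, 5432 bp wide, 61.0 kb into the gene) was higher in knockout cells. Scramble libraries held 1891, 1872 and 3043 bp with DMSO and 3580, 1812 and 3029 bp with dexamethasone, and knockout libraries 4799, 4885 and 4896 bp with DMSO and 4799, 3551 and 3151 bp with the drug. The DMSO groups did not overlap, and the dexamethasone groups did. The log2 difference was 0.78 ± 0.19 SE (adjusted p = 0.017 in limma). It passed in 20 of 22 settings, and not with bases covered in at least 6 libraries (0.60, adjusted p = 0.22) or strong peaks alone (0.59, adjusted p = 0.19). The widest FOXO3 region, region 12 (7111 bp, 69.4 kb into the gene), and region 3 over the first starts did not pass. No region of the 8 genes was called for a difference between the drug responses, beside 0.985% of all regions.

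**Figure D4:**
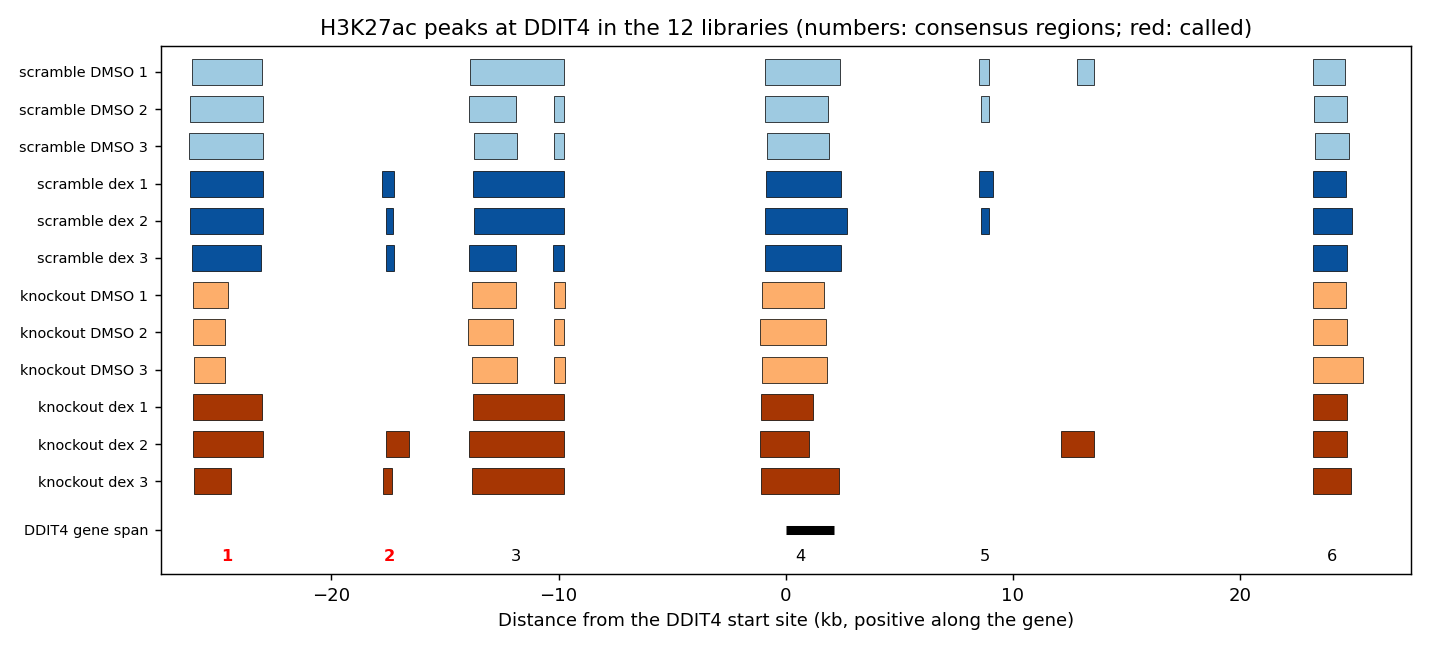
Deposited H3K27ac peaks around DDIT4 in each of the 12 libraries, as distance from its start in kb (positive along the gene), with the gene span as a black bar and the consensus regions numbered. Region 1, in red, is shorter in the 3 knockout DMSO libraries and 1 knockout dexamethasone library, region 2, in red, has a peak only in 5 of the 6 dexamethasone libraries, and region 3 is 1 joined peak or 2 separate ones.

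For the other genes the region of smallest p for the drug did not pass. SESN2 region 4 (chr1:28272542-28274920, 14.2 kb into the gene) held 430, 621 and 336 bp in scramble DMSO, 2104, 2080 and 360 bp in scramble dexamethasone, 346, 386 and 258 bp in knockout DMSO and 1902, 1649 and 2379 bp in knockout dexamethasone libraries. Treated libraries had a wide peak in 5 of 6 cases, and scramble dexamethasone library 3 stayed within the untreated range. The log2 difference was 1.76 ± 0.38 SE (adjusted p = 0.072 in limma), and without that library it was 2.13 (adjusted p = 0.00059). That was the 1 of 21 alternatives in which it passed. With bases covered in at least 6 libraries it was 0.0098 (adjusted p = 1). Region 3 over the SESN2 start was covered in all 12 libraries, as was the widest, region 2 (4788 bp, 12.1 kb upstream).

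The only PDK4 region (chr7:95608321-95610000, 1680 bp) lies 12.6 kb upstream and carries nearly all of the values given for PDK4 above (log2 0.50, adjusted p = 0.59 in limma). TXNIP region 2 (chr1:145996576-146000213, 3638 bp), over the first start, held 3610, 1800 and 1826 bp in scramble DMSO and 3612, 3615 and 3612 bp in scramble dexamethasone libraries. In knockout libraries it held 1894, 3638 and 3608 bp with DMSO and 3638, 3638 and 3615 bp with the drug. The long values are 1 joined peak and the short ones 2 separate peaks, and all 6 treated libraries had the joined form (log2 0.47, adjusted p = 0.59 in limma). SESN3 region 1 (log2 0.53), FOXO1 region 2 (0.23) and FOXO3 region 1 (0.33) had adjusted p above 0.5.

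**Figure D5:**
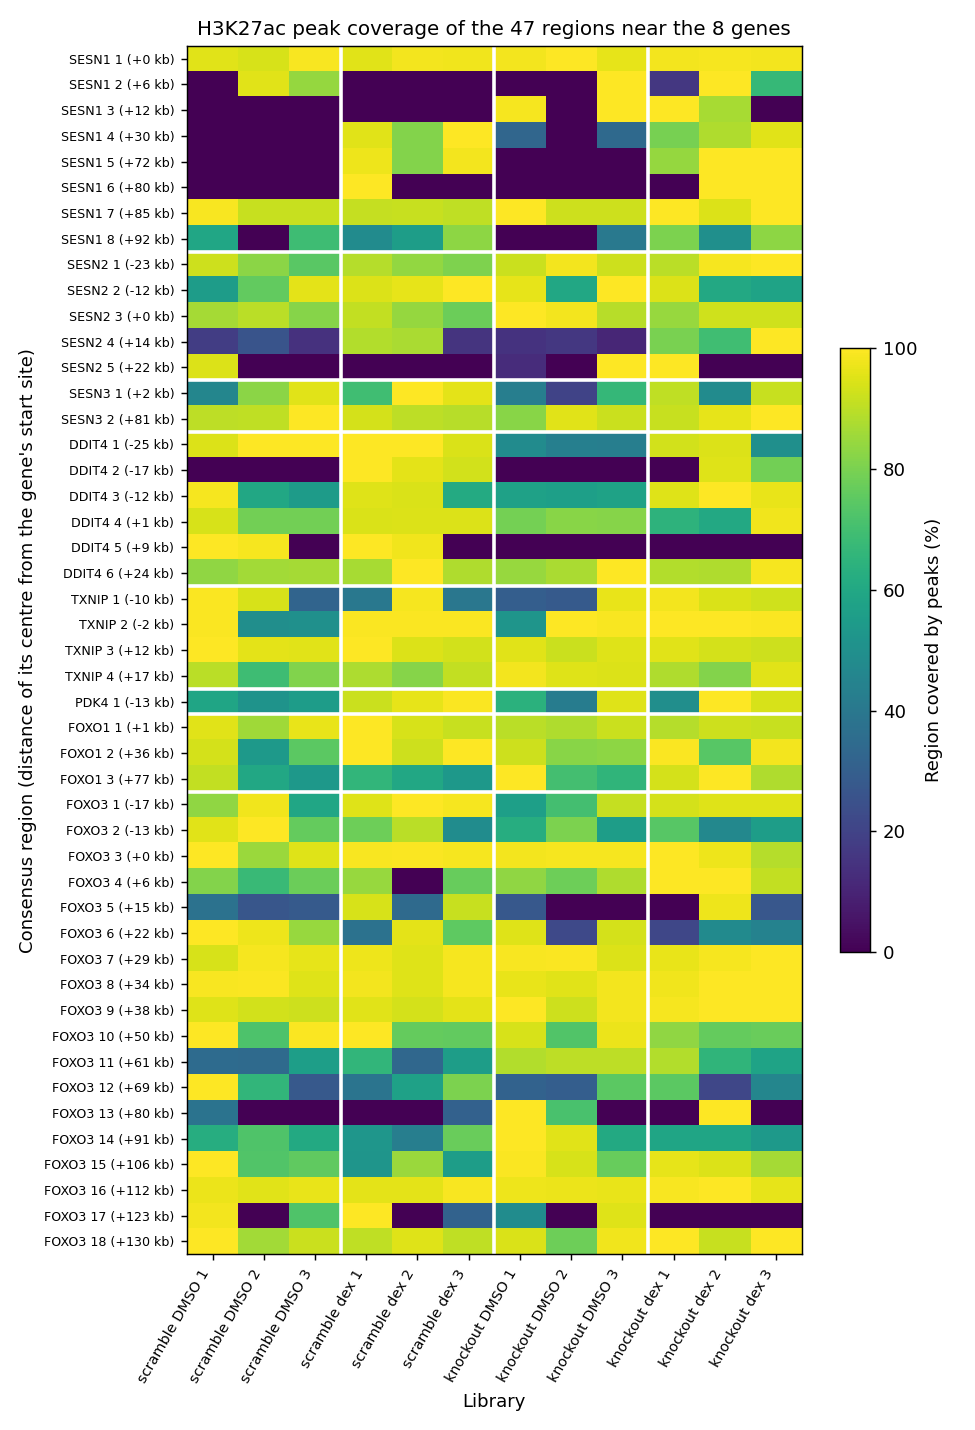
Share of each of the 47 consensus regions covered by peaks (colour, 0 to 100%), with regions in rows, named by gene, number and distance of the centre from the start in kb, and the 12 libraries in columns by group. SESN1 region 5 is empty in all 6 DMSO and filled in all 6 dexamethasone libraries, and most FOXO3 regions are covered in all 12.

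Covered length does not use the height of a peak. The authors' fold enrichment of a peak over background describes it within its own list, so values of different lists are set side by side here without a test. The peak of highest fold was named after its values were seen. At TXNIP it lay in region 1 (chr1:146006296-146007539, 10.3 kb upstream) in all 12 libraries. With DMSO its fold was 4.89, 4.30 and 4.73 in scramble and 5.15, 5.03 and 5.52 in knockout libraries, above 66.1% to 86.5% of the peaks of the same list. With dexamethasone it was 6.97, 8.37 and 8.42 in scramble and 7.71, 6.27 and 6.32 in knockout libraries, above 94.7% to 98.9% of the peaks of the same list. Its −log10 q was 4.94 to 12.8 in DMSO and 26.4 to 44.3 in dexamethasone lists. The covered length of the same region overlapped between treatments, at 350 to 1239 bp with DMSO and 493 to 1229 bp with dexamethasone.

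At the other 7 genes the folds of DMSO and dexamethasone lists overlapped over both genotypes. PDK4 region 1 had folds of 6.41 to 7.18 in DMSO and 5.34 to 7.58 in dexamethasone lists. At SESN2 the strongest peak lay over the start in all 12 libraries (4.35 to 5.03 and 4.62 to 5.35), at DDIT4 in region 6, 24.0 kb downstream (4.57 to 4.91 and 4.07 to 4.65), at SESN3 in region 2, downstream of the gene (5.39 to 7.14 and 5.21 to 6.63), and at FOXO3 in region 18, downstream (5.60 to 7.27 and 5.00 to 6.50). SESN1 had it over one of its starts in every library (5.34 to 6.93 and 4.71 to 6.22), and FOXO1 in region 2 or 3 within the gene (5.17 to 8.05 and 4.89 to 7.06). Within 1 genotype, treated lists were all lower at SESN1 and SESN3 in knockout cells (5.34 to 6.64 against 4.71 to 5.19, and 6.40 to 7.14 against 5.21 to 6.33) and at DDIT4 in scramble cells (4.57 to 4.81 against 4.07 to 4.46). At SESN2 in scramble cells they were all higher (4.40 to 4.88 against 4.90 to 5.35). The SESN1 peak lay in region 1 in knockout dexamethasone library 1 and in region 7 in the other knockout libraries. How often folds separate like this over all genes is not given, here or for TXNIP, so these separations are descriptions.

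Genes that act with these 8 were taken from 8 lists of 97 pathway genes, of which 96 were tested. Dexamethasone, averaged over the genotypes, changed 0 of the 96. Of these, 64 (66.7%) were above 0, beside 55.3% of all genes, with a median of 0.061 beside 0.024. At an unadjusted p under 0.05, 8 of the 96 were higher and 2 lower, beside 4.56% and 4.13% of all genes. The 3 of smallest p did not pass: SEC13, a GATOR2 subunit (log2 −0.73, adjusted p = 0.16 in limma), BCL6, a FOXO target and repressor (−0.60, adjusted p = 0.34), and CDKN1A, the p53 target that encodes p21 (0.27, adjusted p = 0.35). No pathway gene was called for the difference between drug responses.

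Averaged over the treatments, 5 of the 96 pathway genes were called higher and 9 lower in knockout than in scramble cells, with a median of 0.0039. These calls are 14.6% of the 96, near the 15.1% of all genes that were called, so the count is no result about the pathway. DDIT4L, the paralog of DDIT4, was higher by log2 2.21 (adjusted p = 1.9e-06 in limma). It is listed at 0 in the 3 scramble DMSO libraries. Its coverage was 1.55 ± 0.16 kb in knockout DMSO and 2.49 ± 1.2 kb in knockout dexamethasone libraries. The spread within a group at 0 is 0, which makes such a p small. The filter of at least 3 covered libraries could be met here by knockout libraries alone. FBXO32, the muscle atrophy ubiquitin ligase gene driven by FOXO factors, rose by 0.54, and TRIM63, its companion in atrophy, by 0.75. TRIM63 did not pass in 13 of 23 alternative settings, and its value ran from −0.15 to 1.25, below 0 in 2 of them. The Ragulator gene LAMTOR1 rose by 0.46 and the arginine sensor CASTOR1 by 0.39. LAMTOR1 did not pass in 1 of 23 settings and CASTOR1 in 8, with the sign of CASTOR1 turned in 1.

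Among the 9 lower genes, CASTOR2, which encodes a second CASTOR protein, fell by log2 −1.73 (7.47 ± 0.51 kb in scramble DMSO and 1.66 ± 1.1 kb in knockout DMSO libraries). BCL2L11, the gene of the death protein BIM and a FOXO target, fell by −0.46 (13.4 ± 1.5 kb and 8.02 ± 0.64 kb in the same groups), and ARRDC4, the closest relative of TXNIP in the lists, by −0.68. The AMPK subunit gene PRKAB1 (−0.67), the folliculin partner FNIP2 (−0.62), LAMTOR3 (−0.52), the stress gene ASNS of asparagine synthesis (−0.39), the mTOR inhibitor DEPTOR (−0.29) and the GATOR1 subunit NPRL2 (−0.24) completed them, with adjusted p up to 0.045 in limma. Many of these calls were lost in other settings: of 23, DEPTOR did not pass in 14, NPRL2 in 13, FNIP2 in 11, ASNS and LAMTOR3 in 9, PRKAB1 in 4, and ARRDC4 and CASTOR2 in 2. LAMTOR3 turned above 0 in 1 of 23 settings, and the other 8 of the 9 in none. DDIT4L, FBXO32 and BCL2L11 passed in every alternative in which they were tested. No other pathway gene was called under DMSO or under dexamethasone alone.

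As a description, the genes whose coverage followed the 8 most closely over the 12 libraries, at over 1 Mb distance, had Pearson r of 0.87 to 0.93. These are the 2 highest of 17155 genes each and carry no p. They were APOBEC3B and AOX1 for SESN1, CLK2 and YWHAQ for SESN2, SNAPIN and FILIP1L for SESN3, SEMA3C and RLIM for DDIT4, SLC12A3 and BMF for TXNIP, FKBP1B and NDUFA11 for PDK4, KRT18 and PKP2 for FOXO1, and PLEK2 and TEAD1 for FOXO3. Among the 8 genes themselves, r was highest for TXNIP with FOXO1 (0.74), SESN1 with PDK4 (0.71) and SESN1 with SESN2 (0.68), and lowest for DDIT4 with FOXO3 (−0.42). The points share their libraries and the normalisation, so these values describe 12 libraries only.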

How the data were processed

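The submitters' processing notes name the build hg38 and the tools Bowtie2 2.4.2 (an aligner) and MACS3 3.0 (a peak caller). No control library or pooling is named, and each library has its own list of broad peaks. The deposited peak starts and ends are 0-based positions and are given here from 1. The deposited score, the fold enrichment (a ratio over background), the −log10 p and the −log10 q are the authors' values for each peak. The lowest −log10 q of a list was 0.523 to 0.535. No read counts or depths are given, so no counting interval could be computed.

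The value of a gene is the base pairs under peaks in its RefSeq span and the 25 kb on either side (GRCh38.p14, chromosomes 1 to 22 and X; 213 to 296 peaks per library elsewhere were not used). Genes covered in at least 3 libraries were fitted as log2(bp + 500), quantile-normalised, with limma 3.58.1 (trend and robust, 8 residual degrees of freedom, R 4.3.3) and 1 mean per group over 12 libraries. Regions were bases under peaks of at least 3 libraries, joined over gaps of up to 200 bp and at least 200 bp wide, fitted as log2(bp + 100). Benjamini-Hochberg adjustment ran over all genes or regions. The 8 genes, the gene lists, the named-gene rule (all 8 genes, pathway genes that passed and otherwise the 3 of smallest p, regions that passed, the widest and the smallest-p region per gene, and start regions) and the tests were chosen with earlier results of these data known. Neighbouring windows overlap, so genes are not independent. Tested on simulated data for dexamethasone in scramble cells (17155 genes, 200 changed), the gene fit recovered 51% of changes of log2 1 and 92% of log2 2, with 10 false calls. Alternatives changed the window, peak strength, covered length, offset, normalisation, filter, limma options, groups fitted, replicate block and libraries. Python 3.11.15 with NumPy 2.4.6, pandas 2.3.3 and Matplotlib 3.10.9 was used.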

Additional observations from a re-analysis of the deposited data

How the results depend on the processing

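Of the 8 genes, SESN1 passed with only peaks of −log10 q of at least 2 for dexamethasone in scramble cells, in knockout cells and averaged (1 gene each, where the main count was 0). For knockout under DMSO, 1 gene (DDIT4) passed with strong peaks alone, with an offset of 100 bp and with genes covered in at least 6 libraries, and leaving out 1 library gave 0 to 1. For the averaged knockout effect, 1 (FOXO3) passed with a window of 5 kb, 2 (DDIT4 and FOXO3) with strong peaks alone and 2 with equal covered length, and leaving out 1 library gave 0 to 1. Averaged knockout calls among the 47 regions fell from 2 to 1 with bases covered in at least 6 libraries and ran from 2 to 5 with 1 library left out; calls for the difference between drug responses ran from 0 to 2 then. Without knockout dexamethasone library 3, the knockout count was 4 and DDIT4 regions 1 and 4 passed for that difference; without knockout DMSO library 2, the counts were 5 and 1. DDIT4 in knockout cells turned to −0.048 with a window of 5 kb. FOXO3 turned to −0.030 (100 kb window), −0.034 (no normalisation) and −0.019 (scaling to total covered length) under DMSO, and to −0.035 and −0.053 averaged. The cause of these changes was not tested.

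Over all genes, calls for the averaged drug effect ran from 4 to 50 and for the averaged knockout effect from 1849 to 4699. Over all regions, they ran from 312 to 1062 and from 6411 to 10704. With no normalisation the median difference of all genes went from 0.031 to −0.087 for dexamethasone in scramble cells and from 0.024 to −0.081 averaged. Relative to that median, the 8 genes' averaged drug differences were then −0.021 (FOXO3) to 0.64 (SESN1), and −0.0086 to 0.64 in the same order with quantile normalisation. The other comparisons, and all of them with scaling to total or equal covered length, moved it by less than 0.1.

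The titles hold no replicate numbers, and those used here follow the serial order of the titles within each group. Over 18 pairs of same-numbered libraries, deviations from the group means correlated between −0.079 and 0.095. Whether the libraries were paired in another order was not tested. With the replicate block, 0 of the 8 genes were called in each comparison, and DDIT4 region 2 no longer passed (log2 1.71, adjusted p = 0.10 in limma).

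Limits are the unknown depth, the unstated origin of the 3 libraries of a group, and the use of covered length, which does not see a peak grow higher. The depth of each list also sets which weak peaks are called, and it cannot be separated from the groups here.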
